A study of Homo sapiens with 8 samples.

Results

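The genes described here encode factors of AP-1 and of the immediate early response: the Jun family genes JUN, JUNB and JUND, the Fos family genes FOS, FOSL1 and FOSL2, the small Maf gene MAFF, the zinc finger factor EGR1 and the response genes IER2 and IER3. They were chosen by name, with earlier results of these data known. Counts of members set beside the share of all tested genes are therefore descriptive. All 10 genes had a probe set that the platform annotation gives to a single one of these symbols, and 23 probe sets did so in all, out of probe sets for 19775 genes on the array. Each gene was read from its probe set with the highest mean over the 8 arrays, and all 10 were among the 14180 genes that passed a filter on dim signals, set at a log2 value of 4.46.

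The arrays measured transcripts in sublines of KYSE180 and KYSE30, established human esophageal squamous cell carcinoma lines. The sublines came from 4 successive transwell selections: 180D and 30D are the cells that went through the membrane and are labelled as the more motile ones, and 180U and 30U are the cells that stayed behind. Each group held 2 arrays, and each D subline was selected from the same parental population as a U subline. All sublines were expanded for 2 passages after harvest and lysed as subconfluent cultures after a wash in cold saline, with no stimulus named in the labels. The values therefore describe growing cultures some time after migration, not cells caught while they moved. In a bulk culture, a change in the share of cells that express a gene and a change in the level per cell cannot be told apart.

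AP-1 is a family of dimers. Jun proteins pair with each other or with Fos proteins through a leucine zipper and bind a short palindromic DNA site. Growth factor, adhesion and stress signals reach many of these genes through MAP kinases. Genes whose transcription starts without new protein synthesis are called immediate early genes. In stratified squamous epithelium AP-1 acts on genes of differentiation as well as on genes of migration and matrix remodelling, and which Jun and Fos members are present shapes the choice of target genes. Small Maf proteins share the zipper but lack a transactivation domain. EGR1 is a zinc finger factor switched on by the same signals.

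Immediate early promoters are known for sites of serum response factor and of the AP-1 and CREB families, and those of 4 members are shown to make visible how their start regions differ. RefSeq windows of 250 bases before to 50 bases after the start site (GRCh38.p14) were at hand for 8 members, all but FOSL1 and IER3. Capitals mark the letters found by a search of both strands for the AP-1 site TGACTCA, the variant TGACATCA, the CRE TGACGTCA, the EGR site GCGNGGGCG and the CArG box bound by serum response factor. EGR1 lies on the plus strand at chr5:138465229-138465528, JUN on the minus strand at chr1:58783998-58784297, JUND on the minus strand at chr19:18281573-18281872 and MAFF on the plus strand at chr22:38201744-38202043.
EGR1: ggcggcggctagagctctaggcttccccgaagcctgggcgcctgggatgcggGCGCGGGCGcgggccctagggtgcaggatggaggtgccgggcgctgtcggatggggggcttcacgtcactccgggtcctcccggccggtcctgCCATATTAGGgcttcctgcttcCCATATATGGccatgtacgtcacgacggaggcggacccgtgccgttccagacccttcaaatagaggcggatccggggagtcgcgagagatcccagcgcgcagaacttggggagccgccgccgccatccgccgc
JUN: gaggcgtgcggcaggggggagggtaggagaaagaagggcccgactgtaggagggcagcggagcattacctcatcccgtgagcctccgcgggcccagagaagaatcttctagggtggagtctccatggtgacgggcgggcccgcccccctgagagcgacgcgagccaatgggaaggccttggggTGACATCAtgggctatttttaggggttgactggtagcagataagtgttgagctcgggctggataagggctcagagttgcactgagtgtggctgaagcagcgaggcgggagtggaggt
JUND: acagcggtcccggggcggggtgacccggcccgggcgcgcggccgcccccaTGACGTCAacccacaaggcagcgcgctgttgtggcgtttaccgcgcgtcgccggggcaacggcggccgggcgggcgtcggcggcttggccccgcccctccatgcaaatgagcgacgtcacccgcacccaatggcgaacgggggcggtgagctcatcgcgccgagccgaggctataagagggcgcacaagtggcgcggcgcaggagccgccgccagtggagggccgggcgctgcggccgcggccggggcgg
MAFF: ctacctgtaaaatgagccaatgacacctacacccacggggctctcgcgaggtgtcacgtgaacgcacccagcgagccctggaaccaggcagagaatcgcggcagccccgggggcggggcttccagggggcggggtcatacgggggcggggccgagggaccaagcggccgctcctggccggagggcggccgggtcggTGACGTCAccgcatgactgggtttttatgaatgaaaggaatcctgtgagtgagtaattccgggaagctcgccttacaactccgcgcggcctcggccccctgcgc
The EGR1 window held 2 CArG boxes, CCATATTAGG from -105 to -96 and CCATATATGG from -83 to -74 relative to the start site, and a match to the EGR site itself. A CArG box was present in 1.29% and the EGR site in 9.43% of 35116 promoter windows. JUN held TGACATCA from -67 to -60, the site through which AP-1 is known to act on JUN itself, and 2.61% of windows held these letters. JUND and MAFF each held a CRE, from -200 to -193 in JUND and from -54 to -47 in MAFF, against 1.85% of windows. FOSL2 held TGACTCA from 5 to 11 bases after the start, and 4.95% of windows held it. None of the 5 motifs was found in the windows of FOS, JUNB and IER2 or in a second window listed for MAFF. Only full matches inside these windows were counted, so variant letters or sites further from the start were not searched for. These matches are letters in a window, and binding was not measured.

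Over the tested genes, replicate arrays of a group correlated at 0.997 to 0.998, while the correlation across lines was 0.860 to 0.869. RNA integrity controls singled out 180D replicate 1: its 3′ ACTB signal exceeded the 5′ signal by 1.92 on the log2 scale, against 1.06 to 1.42 on the other arrays. Among the markers of squamous epithelium 9 of 12 could be read, and 8 of them lay above the filter value in all 4 groups. In KYSE30, KRT5 (4.84 in 30D and 4.63 in 30U) and PKP1 (4.61 and 4.90) lay only just above that value. In 180D and 180U KRT5 averaged 12.27 and 12.30, and PKP1 10.18 and 10.28. SOX2, CDH1, DSG3, EPCAM, LAMB3 and ITGA6 averaged at least 7.1 in every group. The basal keratin KRT14 averaged 13.38 in 180D and 13.62 in 180U, but 4.13 in 30D and 3.54 in 30U, both below the filter value, so KYSE30 does not carry this marker at a readable level. Of 7 fibroblast markers 4 were above the filter value in all groups, among them COL1A1 with group means of 6.63 to 7.84, and COL1A2, COL3A1 and LUM were below it in every group. Of the leukocyte markers 3 of 4 that could be read, PTPRC among them, were below it in every group, and CD3E reached at most 4.69. Of 4 endothelial markers 2 were above it in all groups, as were 3 of 6 markers of glandular epithelium. The part of other cell types in the results was not tested.

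**Figure D1:**
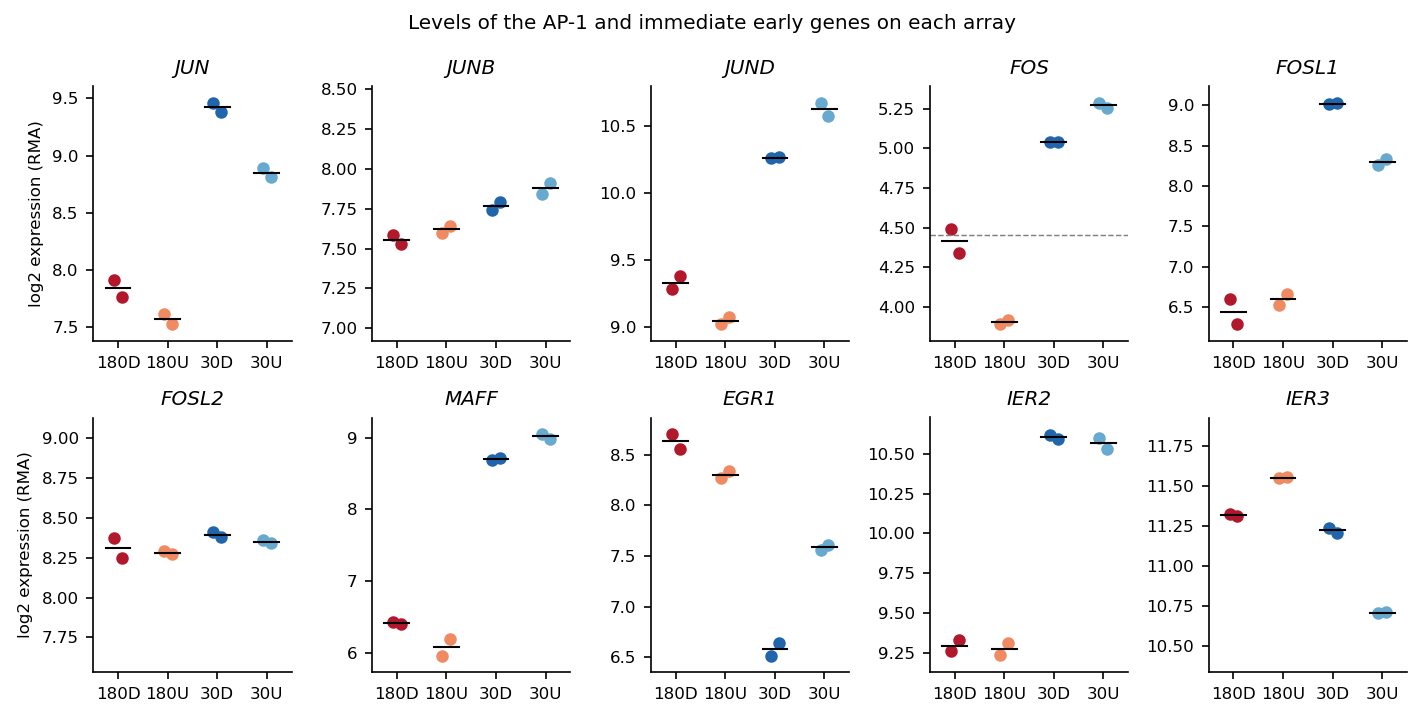
Log2 expression of the 10 genes on each array (points) with the mean of each group (line), for 180D, 180U, 30D and 30U from left to right; each panel has its own scale, and the dashed line for FOS is the filter value of 4.46. JUND, FOS, MAFF and EGR1 sit higher in 180D than in 180U and lower in 30D than in 30U, whereas IER3 does the reverse.

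The sublines of KYSE30 were compared first, since most of the changes lay there. In 30D, 7 of the 10 genes changed. JUN, FOSL1 and IER3 rose, and EGR1, JUND, MAFF and FOS fell. Of all tested genes 16.5% passed in this comparison, 8.42% of them higher and 8.12% lower in 30D. Changes are log2 differences, D minus U, with their SE from limma and an adjusted p over all tested genes. The groups did not overlap for 9 of the 10 genes, but with 2 arrays a side that was so for 64.7% of all tested genes.

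Among the Jun family, JUN is the classical partner of Fos proteins and a driver of growth. It read 9.46 and 9.38 in 30D, against 8.89 and 8.81 in 30U. Both 30D arrays lay above both 30U arrays, and the change was 0.57 ± 0.07, or 1.49-fold (limma adjusted p = 0.00315). JUND, often a brake on proliferation, read 10.26 on both 30D arrays, against 10.67 and 10.57 in 30U. It moved the other way to JUN, by -0.36 ± 0.06 (limma adjusted p = 0.00928). JUNB, which antagonises JUN at many targets, read 7.74 and 7.79 in 30D, against 7.84 and 7.91 in 30U. Its difference of -0.11 ± 0.05 did not pass (limma adjusted p = 0.227).

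Among the Fos family, FOSL1, which encodes Fra-1 and is linked to invasion in many carcinomas, read 9.01 and 9.03 in 30D, against 8.27 and 8.34 in 30U. This 1.65-fold rise (0.72 ± 0.10, limma adjusted p = 0.00500) was the largest upward change among the 10 genes in KYSE30. FOS read 5.04 on both 30D arrays, against 5.29 and 5.26 in 30U. FOS was dim in all groups, and its fall of 0.23 on the log2 scale passed narrowly (limma adjusted p = 0.0448). FOSL2, which encodes Fra-2, read 8.41 and 8.38 in 30D, against 8.36 and 8.34 in 30U. Its difference of 0.04 ± 0.06 did not pass (limma adjusted p = 0.663).

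EGR1 had the largest change of all 10 genes. It read 6.51 and 6.64 in 30D, against 7.56 and 7.61 in 30U, a change of -1.01 ± 0.07, or 2.02-fold lower (limma adjusted p = 0.000331). MAFF read 8.68 and 8.72 in 30D, against 9.05 and 8.98 in 30U, and changed by -0.31 ± 0.08 (limma adjusted p = 0.0385). IER3, a regulator of apoptosis that prolongs ERK signalling, read 11.24 and 11.21 in 30D, against 10.70 and 10.71 in 30U. Its arrays lay close together within each group and far apart between them, and it rose by 0.52 ± 0.05 (limma adjusted p = 0.000995). IER2, a nuclear response protein, read 10.62 and 10.60 in 30D, against 10.60 and 10.53 in 30U. The groups overlapped, and the difference of 0.04 ± 0.06 did not pass (limma adjusted p = 0.688).

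JUN, FOSL1, IER3 and EGR1 kept their calls under each of the 15 alternative settings run for KYSE30. With no filter FOS and MAFF lost their calls (limma adjusted p = 0.0863 and 0.0683). The same held with the filter at the 20th percentile (0.0679 and 0.0557), and FOS lost its call with an intensity trend (0.185). FOS and MAFF lost theirs when the parental population was added as a block (adjusted p = 0.0743 and 0.0576) or without any 1 of the 4 KYSE30 arrays (adjusted p up to 0.197 and 0.179), and JUND lost its call when either 30D array or 30U replicate 1 was left out (adjusted p up to 0.0700).

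In KYSE180 fewer members passed, and some fitted differences had the opposite sign to those in KYSE30. Only FOS and IER3 passed, against 3.75% of all tested genes (2.55% higher and 1.21% lower in 180D). An unadjusted limma p under 0.05 was found for 6 of the 10 members. The share of all tested genes under it was not counted, so nothing is read from such counts here or below. The groups did not overlap for 7 members, and for 44.6% of all tested genes. IER3 read 11.33 and 11.31 in 180D, against 11.55 and 11.56 in 180U. It fell by 0.23 on the log2 scale, opposite to its rise in KYSE30 (limma adjusted p = 0.0464). FOS read 4.49 and 4.34 in 180D, against 3.89 and 3.92 in 180U. The fitted difference of 0.51 ± 0.06 passed (limma adjusted p = 0.00654), but 180D and 180U both averaged less than the filter value and no rise is claimed.

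The other 8 members did not pass. EGR1 read 8.71 and 8.56 in 180D, against 8.27 and 8.34 in 180U, a difference of 0.33 ± 0.07 (limma adjusted p = 0.0586). JUND read 9.28 and 9.38 in 180D, against 9.02 and 9.07 in 180U, a difference of 0.28 ± 0.06 (limma adjusted p = 0.0553). MAFF read 6.43 and 6.40 in 180D, against 5.96 and 6.19 in 180U, a difference of 0.34 ± 0.08 (limma adjusted p = 0.0685, but 0.0329 without 180U replicate 2). In each of these 3 genes both 180D arrays lay above both 180U arrays without the difference passing. With an intensity trend in the fit EGR1, JUND and MAFF did pass (limma adjusted p of 0.0181, 0.00471 and 0.0224), as did JUN (0.0310). JUN read 7.91 and 7.77 in 180D, against 7.62 and 7.53 in 180U (0.27 ± 0.07, limma adjusted p = 0.102). FOSL1 read 6.59 and 6.29 in 180D, against 6.52 and 6.67 in 180U (-0.15 ± 0.10, limma adjusted p = 0.474). The FOSL1 arrays of both groups were interleaved, so no order can be read from them. JUNB was between 7.53 and 7.58 in 180D and between 7.60 and 7.64 in 180U, FOSL2 between 8.25 and 8.38 in 180D and between 8.27 and 8.29 in 180U, and IER2 between 9.26 and 9.33 in 180D and between 9.24 and 9.31 in 180U. None of these 3 passed, with limma adjusted p of 0.580, 0.813 and 0.888.

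IER3 lost its call with a block for the parental population (adjusted p = 0.132), with only the KYSE180 arrays in the fit (0.244) or without any 1 of the 8 arrays (up to 0.132). With 180D replicate 1 left out (the divergent integrity control), its change was -0.24 ± 0.05 (adjusted p = 0.118), and those of EGR1, JUND and MAFF were 0.26 ± 0.08, 0.33 ± 0.07 and 0.33 ± 0.10; the part of RNA integrity in these values was not tested.

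**Figure D2:**
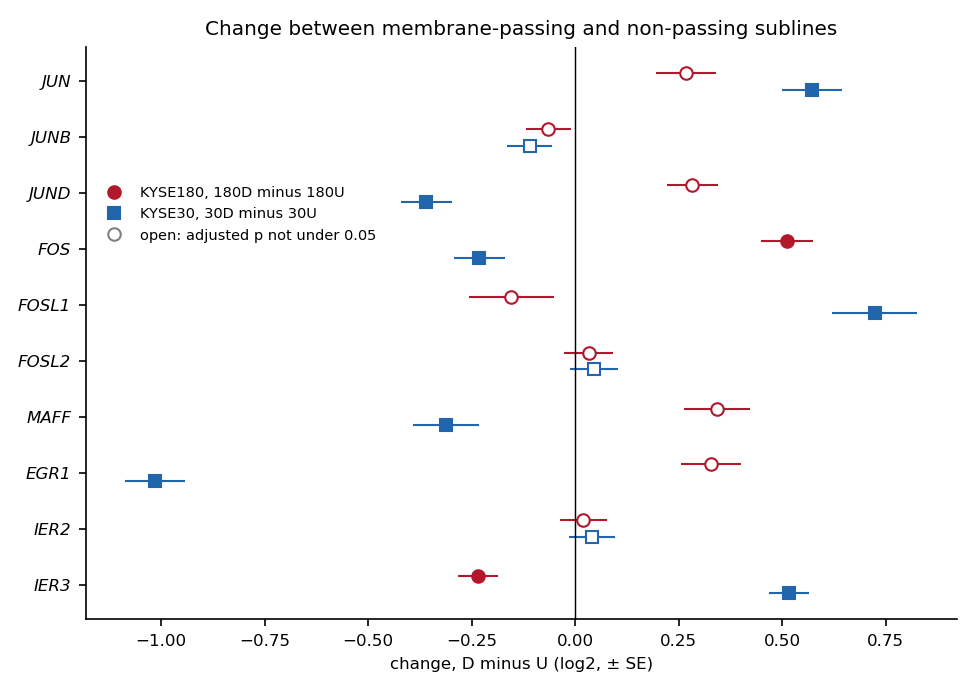
Change between D and U sublines (log2, ± SE, 2 arrays per group) for KYSE180 (circles) and KYSE30 (squares), filled where the limma adjusted p was under 0.05. The markers of EGR1, JUND, MAFF, FOS, FOSL1 and IER3 lie on opposite sides of 0 in the lines, while both markers of JUN lie to the right.

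Whether the lines differed was tested directly. The change differed between the lines for 6 of the 10 members, compared with 12.2% of all tested genes (6.94% more positive and 5.21% more negative in KYSE180), and in each of these 6 the fitted differences had opposite signs. Only IER3 passed in both lines with levels above the filter value. FOS was below it in KYSE180, so its difference rests on KYSE30 arrays and background signal, and the sign for FOSL1 in KYSE180 is not settled. Opposite signs alone were common, with 52.3% of all tested genes, whereas 10.3% had opposite signs together with a difference that passed. EGR1 differed most, by 1.34 ± 0.10 (KYSE180 change minus KYSE30 change, limma adjusted p = 0.000552). FOSL1 followed with -0.88 ± 0.15 (adjusted p = 0.0115), IER3 with -0.75 ± 0.07 (0.00116), FOS with 0.74 ± 0.09 (0.00315), MAFF with 0.65 ± 0.11 (0.0129) and JUND with 0.64 ± 0.09 (0.00562). For JUN the difference of -0.30 ± 0.10 did not pass (limma adjusted p = 0.100; it did with an intensity trend or averaged probe sets), and those of JUNB, FOSL2 and IER2 were 0.05 or less in size. EGR1, JUND and MAFF had a more positive D minus U difference in KYSE180, and FOSL1 and IER3 a more negative one. With the parental population as a block these 6 calls stood. MAFF lost its call when 30U replicate 1 or 30D replicate 1 was left out (adjusted p up to 0.0537), and JUND when all its probe sets were averaged (0.35, adjusted p = 0.164).

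Other probe sets of the same genes were then examined. EGR1 had 3 probe sets and all 3 fell in 30D, by 1.01, 0.67 and 0.94 on the log2 scale. In KYSE180 the other EGR1 probe sets gave 0.08 ± 0.11 and 0.04 ± 0.09, so the positive difference there came from 1 of 3 probe sets. JUN had 4 probe sets, all with positive differences in KYSE30, and 2 of them passed on their own, the one used above and another with 0.71 ± 0.08 (limma adjusted p = 0.00348 over all probe sets). In KYSE180 JUN split, with 2 positive and 2 negative probe sets and none past the test. JUND was read by 3 probe sets above the filter value. The bright one fell in 30D and the dimmer ones gave -0.26 ± 0.16 and 0.01 ± 0.16, so that the average over the JUND probe sets did not pass (-0.20, limma adjusted p = 0.223). In KYSE180 the dimmer JUND probe sets gave 0.14 ± 0.16 and 0.02 ± 0.16. Both MAFF probe sets gave -0.31 in KYSE30, and in KYSE180 the second one gave 0.09 ± 0.11 against the 0.34 used above. The 5 FOSL2 probe sets were all slightly positive in KYSE30, between 0.04 and 0.28, and none passed. FOS, FOSL1, JUNB, IER2 and IER3 had 1 probe set each, with no second reading. Adjusted over all probe sets in place of genes, FOS and MAFF did not pass in KYSE30 (limma adjusted p of 0.0692 and 0.0556), nor IER3 in KYSE180 (0.0812).

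**Figure D3:**
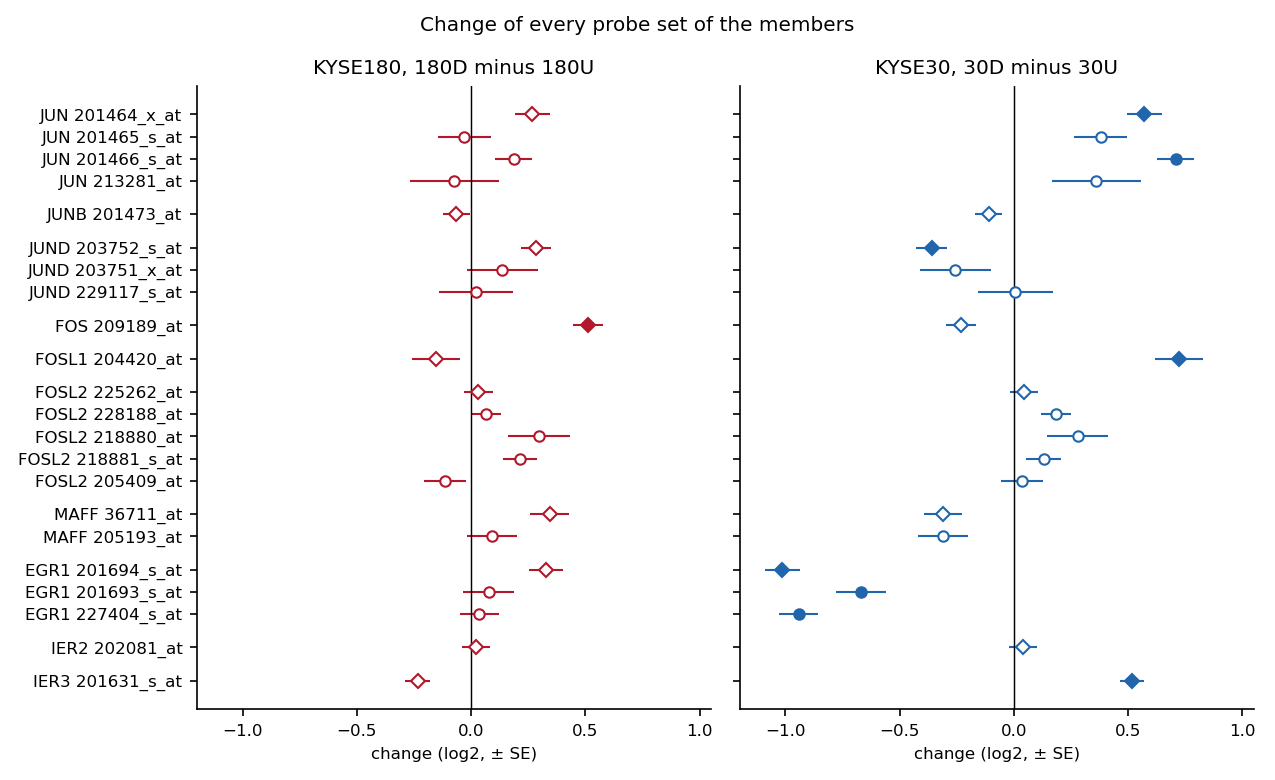
Change of each of the 22 probe sets above the filter value in KYSE180 (left) and KYSE30 (right), as log2 D minus U ± SE; diamonds are the probe sets used for the genes, circles the others, filled where the adjusted p over all probe sets was under 0.05. The 3 EGR1 probe sets all lie left of 0 in KYSE30 and all 4 JUN probe sets lie right of it.

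The lines themselves differed far more than their sublines. Of the 10 genes 9 differed between KYSE180 and KYSE30, 7 lower and 2 higher in KYSE180, where 71.4% of all tested genes passed (38.7% higher and 32.7% lower). Differences are KYSE180 minus KYSE30, averaged over U and D. MAFF was 6.12-fold lower in KYSE180 (-2.61 ± 0.06, limma adjusted p = 1.24e-08), with 6.24 in KYSE180 and 8.86 in KYSE30. Its other probe set gave -1.33 ± 0.08, and the average over both was -1.97. FOSL1 was 4.43-fold lower in KYSE180 (-2.15 ± 0.07), with 6.52 in KYSE180 and 8.66 in KYSE30. JUN, IER2, JUND and FOS were 2.69-fold, 2.46-fold, 2.39-fold and 2.00-fold lower, though FOS had a KYSE180 mean of 4.16, below the filter value, so its fold depends on background. The JUND value rests on the brightest of 3 probe sets, since the others gave -0.31 ± 0.11 and -0.11 ± 0.11 and the average over the JUND probe sets was -0.56. JUNB was lower by a smaller step (-0.23 ± 0.04, limma adjusted p = 0.000920). EGR1 was 2.62-fold higher in KYSE180 (1.39 ± 0.05), with 8.47 in KYSE180 and 7.08 in KYSE30, and IER3 1.39-fold higher (0.47 ± 0.03). FOSL2 was the member that did not pass (-0.07 ± 0.04, limma adjusted p = 0.141), and its 8 arrays stayed between 8.25 and 8.41. It did pass when its 5 probe sets were averaged (-0.18, limma adjusted p = 0.00369) and without 180D replicate 1.

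For EGR1 the gap between the lines was 2.06 in the D sublines and 0.72 in the U sublines. For FOSL1 it was -2.58 in the D sublines and -1.71 in the U sublines. The lines were further apart in the D sublines for both genes, which is the tested difference between the changes seen from the other side. IER3 had a narrower gap, 0.10 in the D sublines and 0.85 in the U sublines. On the probe set used, the order of the groups for EGR1 was 180D, 180U, 30U and 30D from high to low, with no overlap between neighbours. The step between 180D and 180U did not pass, and groups without overlap were found there for 44.6% of all tested genes. On the other EGR1 probe sets the 180D and 180U arrays overlapped. For FOSL1 the order was 30D, 30U and then 180U and 180D, which did not differ beyond their spread.

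**Figure D4:**
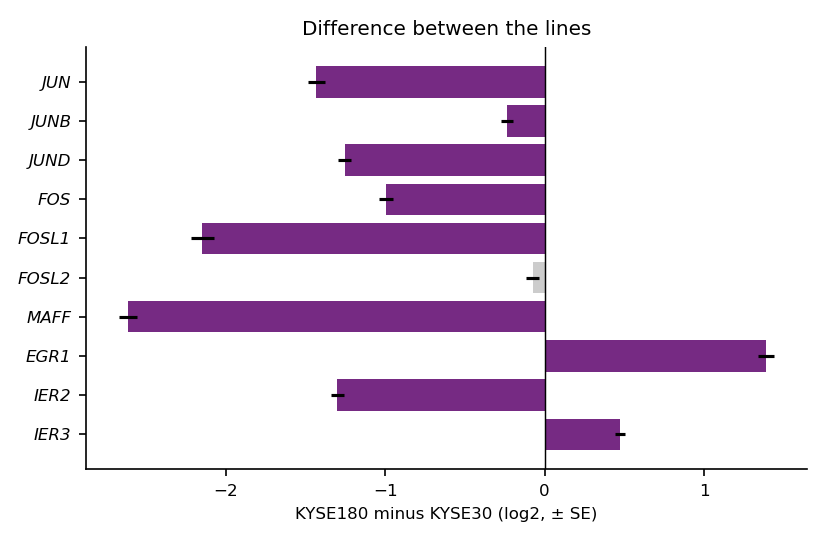
Difference between the lines, KYSE180 minus KYSE30 (log2, ± SE, 4 arrays per line), purple where the limma adjusted p was under 0.05 and grey otherwise. MAFF and FOSL1 extend furthest to the left, MAFF by -1.97 where its probe sets are averaged, and EGR1 and IER3 are the bars to the right.

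Other AP-1 family members were examined next. Of 14 further bZIP genes 10 were tested. In KYSE30 ATF2 rose and ATF3 and JDP2 fell, and in KYSE180 only ATF3 passed, higher. The shares of all tested genes that passed were 16.5% in KYSE30 and 3.75% in KYSE180. ATF3, a stress-induced partner of Jun proteins, read 7.85 and 7.70 in 30D, against 8.62 and 8.61 in 30U (-0.84 ± 0.07, limma adjusted p = 0.000476). In KYSE180 it read 6.82 and 6.89 in 180D, against 6.32 and 6.30 in 180U (0.55 ± 0.07, limma adjusted p = 0.00584). ATF3 thus fell in 30D and rose in 180D, and the difference between these changes passed (1.39 ± 0.09, limma adjusted p = 0.000297). Averaged over its probe sets, ATF3 did not pass in KYSE180 (limma adjusted p = 0.0693). JDP2, a repressor that pairs with Jun, changed by -0.99 ± 0.11 in KYSE30 (limma adjusted p = 0.00177), with a difference of 0.46 ± 0.11 in KYSE180 (limma adjusted p = 0.0652). ATF2, a CRE-binding partner of JUN, rose in 30D by 0.28 ± 0.06 (limma adjusted p = 0.0237), but not with a block for the parental population (0.0696) or without any 1 of the KYSE30 arrays (up to 0.153). The list's median difference was 0.05 in KYSE180 and 0.04 in KYSE30, against 0.02 and 0.01 for all tested genes in the same lines.

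By a distance over the 8 arrays, the root mean square difference of log2 values centred on each line, the genes most like EGR1 were SLITRK5 (0.05), PER2 (0.07) and JDP2 (0.08), whereas EGR1 itself varied with a root mean square of 0.38. PER2 is a core clock repressor. For FOS, the member with the largest fitted difference past the test in KYSE180, they were LYPD1, AMIGO2 and RAB20, each at 0.04 with 0.20 for FOS itself. FOS averaged less than the filter value in 180D and 180U, so likeness to it rests partly on background signal. These distances describe likeness over 8 arrays, and many of 14180 genes can come this close.

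Other immediate early genes moved in both directions in 30D. Of 44 tested, 12 rose, 7 fell and 25 did not pass, where 8.42% of all tested genes rose and 8.12% fell. The median difference was 0.07 against 0.01 for all tested genes. MYC, a growth-promoting factor, rose by 1.02 ± 0.06 (limma adjusted p = 0.000170), and the ERK feedback genes DUSP6 and SPRY4 rose by 0.79 ± 0.10 and 0.75 ± 0.10. DUSP2, a nuclear MAP kinase phosphatase, and ID3 and ID1, inhibitors of helix-loop-helix factors, fell by 0.63, 0.51 and 0.50 on the log2 scale. In KYSE180 3 rose, 4 fell and 37 did not pass, where 2.55% of all tested genes rose and 1.21% fell. The genes that rose there were RHOB (0.39 ± 0.07), CEBPB (0.28 ± 0.05) and ZFP36L2 (0.27 ± 0.06), while TRIB1 (-0.51 ± 0.07), SGK1 (-0.37 ± 0.05) and KLF4 (-0.33 ± 0.06) were 3 of those that fell. In 30D the 6 named genes kept their calls in all 15 alternative settings. In KYSE180 RHOB, CEBPB, ZFP36L2, SGK1 and KLF4 lost theirs with the block (limma adjusted p of 0.0879, 0.109, 0.107, 0.0633 and 0.0825), and TRIB1 without 180U replicate 2 or with only the KYSE180 arrays (up to 0.0714). Between the lines 33 of the 44 were lower and 7 higher in KYSE180, against 32.7% and 38.7% of all tested genes. The median difference was -0.84 against 0.05 for all tested genes.

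The inputs to these promoters, serum response factor with its partners, MAP kinases and the kinases RSK and MSK, followed. Of 23 tested, 3 rose and 2 fell in 30D, where 16.5% of all tested genes passed. None passed in KYSE180 by limma, against 3.75% of all tested genes. An unadjusted limma p under 0.05 was found for 7 there, with the share of all tested genes not counted. In 30D MEF2A (0.45 ± 0.08), the JNK gene MAPK8 (0.24 ± 0.05) and the MEK gene MAP2K1 (0.26 ± 0.06) rose, and RPS6KA5 (-0.28 ± 0.05) and the JNK gene MAPK9 (-0.25 ± 0.07) fell. Each of these 5 lost its call without at least 1 of the KYSE30 arrays, MAPK8 and MAPK9 also with the block (limma adjusted p of 0.0557 and 0.0965), and the MAPK8 difference turned to -0.00916 when its probe sets were averaged. Heat shock genes, which respond to handling, had 1 of 6 past the test in 30D, HSPH1 (0.25 ± 0.05, but limma adjusted p = 0.0516 with the block). None passed in KYSE180 by limma. There 2 had an unadjusted limma p under 0.05, again with no share of all tested genes counted. The part of handling in the members' values was not tested.

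Genes known as AP-1 targets in squamous cells and carcinomas were counted last. The list was chosen with earlier results of these data known. Of 29 tested, 13 passed as higher and 3 as lower in 30D, against 8.42% and 8.12% of all tested genes. The median difference was 0.31 against 0.01 for all tested genes. The urokinase receptor gene PLAUR rose in 30D by 0.46 ± 0.05 and the cornified envelope gene SPRR1A by 0.58 ± 0.07, whereas SPRR3 (-0.93 ± 0.05) and CLU (-0.29 ± 0.06), a secreted chaperone, fell. Of the 13 higher genes 2, MMP1 and FLG, and of the 3 lower genes 1, MMP10, averaged less than the filter value in both 30D and 30U, and no change is claimed for these there. In KYSE180 3 rose and 6 fell, against 2.55% and 1.21% of all tested genes. The chemokine CXCL8 rose by 0.90 ± 0.11, the receptor kinase AXL by 0.82 ± 0.16 and the filaggrin gene FLG by 1.58 ± 0.10. SPRR1A (-1.83 ± 0.07), SPRR1B (-1.37 ± 0.07) and the collagenase MMP1 (-1.30 ± 0.08) fell. AXL passed in 4 of 15 alternative settings, CXCL8 lost its call without 180U replicate 2 (adjusted p = 0.0541), and CLU in 30D without any 1 of the KYSE30 arrays (up to 0.149). The difference between the changes passed for 2 of the 29 as more positive and for 11 as more negative in KYSE180. Among the latter were SPRR1A (-2.41 ± 0.10) and SPRR1B (-1.83 ± 0.10). CXCL8 also rose in 30D (0.71 ± 0.11, limma adjusted p = 0.00606), and SPRR3 also fell in 180D (-0.76 ± 0.05, limma adjusted p = 0.000443). For CXCL8 and SPRR3 the difference between the changes did not pass (0.19 ± 0.15 and 0.16 ± 0.07). Binding of AP-1 to these genes was not measured.

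**Figure D5:**
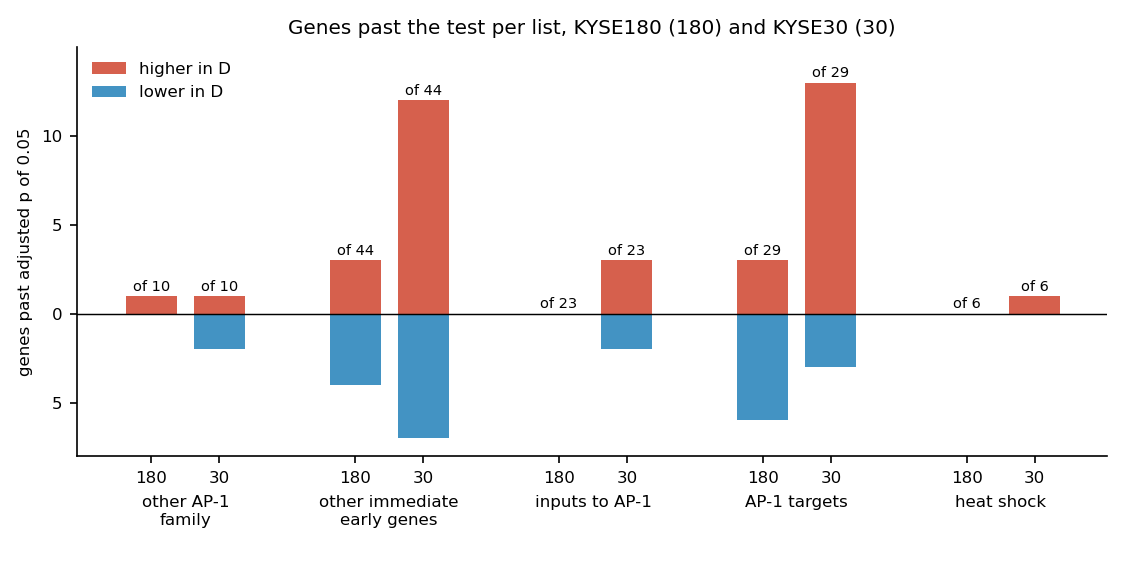
Number of genes past a limma adjusted p of 0.05 in 5 lists, higher in D (upward) and lower in D (downward), for KYSE180 (left bar of each pair) and KYSE30 (right bar), with the number tested above each bar. Among the AP-1 targets 6 genes point downward in KYSE180 and 13 upward in KYSE30. Of the latter, MMP1 and FLG averaged less than the filter value in 30D and 30U. The shares over all tested genes were 1.21% lower in KYSE180 and 8.42% higher in KYSE30.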

How the data were processed

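Transcript levels were read on 8 Affymetrix arrays with 54675 probe sets. The deposited values are log2 expression made by the authors with RMA, per the submitters' processing notes; its version was not found in the sources used here. RMA makes array distributions alike and compresses dim signals, and the number of arrays limits the precision. Groups came from the sample titles. Probe sets with 1 symbol (41091) were named through the platform annotation and updated by Entrez ID through RefSeq (GRCh38.p14). Genes were read from the probe set with the highest mean and kept above the 40th percentile of all probe sets.

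Tests used limma 3.58.1 in R 4.3.3 (group means of 4 groups, lmFit and eBayes, two-sided, Benjamini-Hochberg over 14180 genes, threshold 0.05). The fit was also run on simulated data as a check of the code. Those values were independent draws at the fitted spread, so the run does not bear on the calls reported here. Replicates are separately selected populations. The descriptions pair U with D by parental population, crossing the replicate numbers in KYSE180; deviations from group means of paired arrays correlated at -0.02 in KYSE30 and 0.02 in KYSE180. Alternatives were other filters, scaling, an intensity trend, averaged probe sets, the block, 1 line at a time and leaving out each array. Members and lists were chosen with earlier results of these data known. Genes named from the other lists were up to 3 in each direction with the smallest p per line.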

Additional observations from a re-analysis of the deposited data

Results flagged for a closer look

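The change between D and U sublines differed between the lines, by the direct limma test of the difference, for 6 of the 10 genes. The same test passed for 12.2% of all tested genes. The difference (KYSE180 change minus KYSE30 change, log2) was 1.34 for EGR1, 0.74 for FOS, 0.65 for MAFF, 0.64 for JUND, -0.75 for IER3 and -0.88 for FOSL1. For FOS the KYSE180 levels lay below the filter value. For EGR1 the change past the test lay in KYSE30, and the KYSE180 part rests on 1 of 3 probe sets. The JUND difference did not pass with its probe sets averaged (0.35, limma adjusted p = 0.164). The MAFF call depended on single KYSE30 arrays, as given above, and the sign of FOSL1 in KYSE180 is not settled. Without 180D replicate 1, whose integrity control diverged, the 6 differences were 1.27, 0.67, 0.64, 0.69, -0.76 and -1.03 in the same order of genes, and all 6 passed.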

How the results depend on the processing

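Between 14 and 15 alternative settings were run for each gene and comparison, 580 values for the members, of which 523 kept their direction and their side of the threshold. Members past the threshold numbered 7 in KYSE30 (4 to 6 with 1 array left out), 2 in KYSE180 (1 to 2), 6 for the difference between the changes (5 to 6) and 9 between the lines (9 to 10). In KYSE180 the count was 1 with no filter, 1 with the filter at the 20th percentile and 1 with the parental population as a replicate block. It was 6 with an intensity trend and 0 with only the KYSE180 arrays in limma. In that last fit 6 had an unadjusted limma p under 0.05, with the share of all tested genes not counted. Over all genes, 2346 passed in KYSE30 (834 to 2553 with 1 array left out), 532 in KYSE180 (209 to 502), 1723 for the difference (727 to 1702) and 10125 between the lines (9537 to 10082). In KYSE180 311 passed with no filter, 1069 with a trend, 230 with the block and 195 with only that line's arrays. For the difference 1142, 2700 and 1011 passed with no filter, a trend and the block. The counts with no filter are out of 19775 genes and the others out of 14180. Values near 0 changed sign with 1 array left out: FOSL1 in KYSE180 (-0.31 to 7.5e-05), FOSL2 and IER2 in KYSE180 (-0.031 to 0.095 and -0.016 to 0.056), and their differences (-0.076 to 0.050 and -0.057 to 0.016). MAPK8 in KYSE30 turned to -0.00916 with averaged probe sets. Other probe sets, tested singly after the data were seen, turned FOSL2 (1 probe set, -0.11) and JUN (2 probe sets, -0.030 and -0.075) in KYSE180 and JUND (1 probe set, 0.0068) in KYSE30. The cause was not tested, except that fewer arrays leave fewer degrees of freedom. Besides the genes named with it above, the block changed no call of the members, and none of the within-line changes by which other genes were named. The arrays carry no detection calls, so the filter value stands in for background.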
